A study of Mus musculus with 2 samples.

Results

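The genes of MHC class II antigen presentation were examined in follicular and marginal zone B cells of the mouse spleen. The 9 genes were taken by symbol: the class II chains H2-Aa, H2-Ab1 and H2-Eb1, the peptide editors H2-DMa and H2-DMb2, the editor's inhibitor H2-Oa and H2-Ob, the invariant chain Cd74 and the transactivator Ciita. A probe set, a group of short probes that together measure a transcript, was kept when the platform annotation gave it to 1 of these genes and to no other. This left 12 of the 22626 probe sets, for 8 of the 9 genes. H2-Ob was left without a value of its own, since its probe set is also annotated to the gene model Gm20506.

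The study had 1 Affymetrix array of follicular and 1 of marginal zone B cells, both from wild-type female C57BL/6 mice with no treatment named. Per the labels, B cells of 3 mice were enriched with beads against B220 and sorted on CD21 and CD23. Follicular cells were high for CD23 and intermediate for CD21, and marginal zone cells were intermediate for CD23 and high for CD21. About 100 ng of total RNA from pooled cells was amplified for each array, and the labels do not say whether the same mice gave both populations. With 1 array per population there is no replicate error and no p-value, and every difference is given by its size alone.

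MHC class II molecules carry peptides from endosomes to the cell surface, where CD4 T cells read them. New alpha and beta chains pair in the endoplasmic reticulum around the invariant chain, which blocks the groove and leads the complex to endosomes. There proteases trim the invariant chain to a short peptide, DM exchanges this for antigenic peptide, and DO, made by B cells, holds DM back. CIITA does not bind DNA itself. It attaches to RFX, CREB-family factors and NF-Y, which sit on the X and Y boxes shared by the promoters of class II genes and Cd74. B cells present antigen through this route, and marginal zone B cells are known as potent presenters to naive T cells. C57BL/6 mice do not express the E alpha chain, so the product of H2-Eb1 reaches the surface in no I-E molecule there.

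The promoters of the class II genes are shown because the X and Y boxes are where CIITA acts. RefSeq promoters (build GRCm38.p6) were in the table for 6 of the 9 genes: H2-Aa, H2-Eb1, H2-DMa, H2-DMb2, H2-Oa and H2-Ob. Except for H2-DMa, the stretch from 150 to 25 bases before the annotated start is printed 5′ to 3′ in the direction of the gene. Capitals mark the Y box core GATTGG, the X box core AGNAACNG, a longer X box run AACNNATGATG and the cyclic AMP response element TGACGTCA, each searched on both strands.
H2-Aa, chr17:34287848-34287973, minus strand: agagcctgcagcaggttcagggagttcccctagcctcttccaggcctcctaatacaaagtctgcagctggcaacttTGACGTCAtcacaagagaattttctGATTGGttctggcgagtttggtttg
H2-Eb1, chr17:34305717-34305842, plus strand: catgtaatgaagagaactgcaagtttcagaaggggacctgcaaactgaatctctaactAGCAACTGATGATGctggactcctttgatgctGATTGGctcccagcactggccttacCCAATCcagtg
H2-DMb2, chr17:34145099-34145224, plus strand: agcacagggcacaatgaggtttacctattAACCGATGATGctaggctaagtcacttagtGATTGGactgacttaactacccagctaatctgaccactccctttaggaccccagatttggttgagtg
H2-Oa, chr17:34092229-34092354, plus strand: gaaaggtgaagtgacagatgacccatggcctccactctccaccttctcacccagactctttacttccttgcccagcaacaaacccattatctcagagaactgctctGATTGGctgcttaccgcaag
H2-Ob, chr17:34238755-34238880, plus strand: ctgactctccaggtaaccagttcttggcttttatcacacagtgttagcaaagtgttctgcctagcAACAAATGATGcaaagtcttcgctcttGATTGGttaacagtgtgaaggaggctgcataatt

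The Y box core lay in every printed promoter, and its first base was 49 bases before the start in H2-Aa, 60 in H2-Eb1, 91 in H2-DMb2, 44 in H2-Oa and 58 in H2-Ob. It is a common string, held by 16.1% of the 32851 promoters in the table, and it contains the reversed CCAAT box, which 37.4% held. The X box run, which partly overlaps the X box core in H2-Eb1, began 89 bases before the start in H2-Eb1, 121 in H2-DMb2 and 85 in H2-Ob, and 0.137% of all promoters held it. H2-Aa had the cyclic AMP response element, which 1.79% of promoters held, 74 bases before its start. H2-Aa and H2-Oa matched the shorter and the longer X box string nowhere in the printed stretch. Among the printed promoters, H2-Eb1 alone matched the X box core there. Only matches to these strings were searched, so a miss does not show that a promoter lacks an X box. The X box core was held by 17.4% of promoters. The X box run followed by the Y box core within 40 bases was found for 4 genes, H2-Eb1, H2-DMb1, H2-DMb2 and H2-Ob. The longer string was read off these same 4 promoters, as the letters they share, so that count describes the string and supports nothing. For H2-DMa, which is not printed, the stretch from 150 to 25 bases before either start held none of the marked strings. Neither start of H2-DMa had the X box run in its window, and 1 of them had a Y box core, 199 bases before the start.

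Both arrays were on nearly the same scale, with deposited medians of 12.8 and 12.6, and were scaled to a common 2% trimmed mean. Signals below 12.7, the median of all scaled values, were raised to that floor for ratios, because faint MAS5 signals cannot be ranked. A probe set was measured when its higher signal exceeded the floor. The brightest measured probe set, by mean log2 signal, stood for its gene, which gave 7695 genes. All 6 B cell markers on the array were above the floor in both populations. Their log2 ratios were 1.14 for Blk, 0.10 for Ms4a1 (CD20), -0.32 for Pax5, -0.38 for Cd22, -0.77 for Cd79a and -0.93 for Cd79b, with a median of -0.35. Of 6 T cell markers on the array none exceeded a signal of 17.2, and Cd3e and Cd4 passed the floor on the follicular array alone. Fcer2a (CD23) and Cr2 (CD21), which the sort used, followed their gates with log2 ratios of -3.02 and 1.68.

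Transcripts of most class II presentation genes had slightly lower signals in marginal zone than in follicular B cells. Of the 8 genes, 7 had the lower signal in marginal zone cells, against 52.2% of all measured genes. The differences were small: 7 of the 8 genes lay within 2-fold. Past 2-fold in either direction was 1 member, Ciita, against 9.25% of all measured genes. Its higher signal was follicular, a direction in which 4.86% of measured genes passed 2-fold. The probe set that stood for Ciita passed the floor through the follicular array alone, so the filter fixed its direction. Ciita is nonetheless 1 of the 7 genes counted as lower. In the marginal zone direction 0 members and 4.39% of measured genes did so. On the log2 scale, the ratio of marginal zone to follicular signal had a median of -0.39 over the 8 genes and -0.03 over all measured genes. Of the 12 probe sets, all of them measured, 11 had the lower signal in marginal zone cells, against 52.2% of the 11671 measured probe sets with 1 gene. The 11 include the probe set of Ciita whose direction the filter fixed. Log2 ratios of different probe sets of 1 gene varied with an SD of 0.43 over 2622 genes. That SD covers probe behaviour only, and the ratios of H2-Aa, H2-DMb2 and H2-Oa, as well as that of H2-Eb1, were smaller than it.

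**Figure D1:**
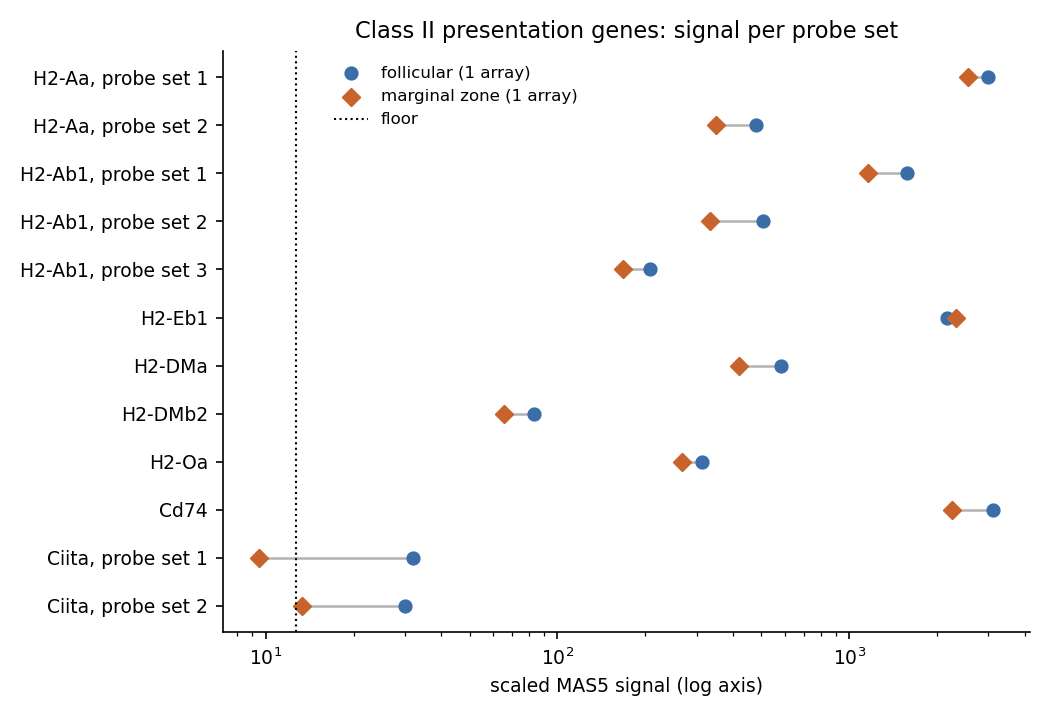
Scaled MAS5 signal (log axis) of each of the 12 probe sets of the class II presentation genes, with a circle for the follicular and a diamond for the marginal zone array and a dotted line at the floor of 12.7. The marginal zone signal lies to the left of the follicular one in 11 probe sets, and Ciita is the one gene near the floor.

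The classical chains form I-A, the class II molecule that C57BL/6 mice display. H2-Aa, the I-A alpha chain, read 2996 in follicular and 2552 in marginal zone cells by probe set 1435290_x_at, a follicular excess of 1.17-fold. The dimmer probe set of the gene, 1452431_s_at, read 479.1 and 349.2, a 1.37-fold difference in the same direction. Both probe sets of H2-Aa placed the follicular array higher, by log2 ratios of -0.23 and -0.46. H2-Ab1, the I-A beta chain, read 1578 and 1158 by probe set 1450648_s_at, 1.36-fold higher in follicular cells. Its probe set 1451721_a_at read 505.3 and 333.7, and 1425477_x_at read 207.1 and 167.9. All 3 probe sets of H2-Ab1 were thus higher in follicular cells, with log2 ratios from -0.60 to -0.30. The alpha and beta chains of I-A differed from each other by 0.22 in log2 ratio, less than the spread between probe sets of 1 gene.

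H2-Eb1, the E beta chain, was the exception among the members. Its 1 probe set, 1417025_at, read 2170 in follicular and 2318 in marginal zone cells, a log2 ratio of 0.09. Marginal zone cells exceeded follicular cells by only 1.07-fold, and under other settings the log2 ratio ran from 0.0045 to 0.15. Its log2 ratio exceeded that of H2-Ab1 by 0.54. The E alpha gene H2-Ea, its partner in other strains, was below the floor on both arrays in all 3 of its probe sets, with signals between 1.01 and 4.45.

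Cd74 encodes the invariant chain, the chaperone of newly made class II molecules. Its probe set 1425519_a_at read 3110 in follicular and 2245 in marginal zone cells, 1.39-fold higher in follicular cells. The log2 ratio of -0.47 lay close to that of H2-Ab1. Of the measured genes, 20.5% had a lower ratio than Cd74.

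The DM editor loads peptides and the DO protein restrains it. H2-DMa, the DM alpha chain, read 582.2 and 420.1 by probe set 1422527_at, 1.39-fold higher in follicular cells. H2-DMb2, a DM beta chain, read 83.1 and 65.5 by probe set 1419744_at, 1.27-fold higher in follicular cells. Both chains of DM had the lower signal in marginal zone cells. A pair of further probe sets is annotated to both H2-DMb2 and its neighbouring copy H2-DMb1, so their signals cannot be given to either gene. The first, 1418638_at, read 99.7 and 79.7 and was 1.25-fold higher in follicular cells. The second, 1449580_s_at, read 257.9 and 139.4 and was 1.85-fold higher there. These probe sets share the direction of H2-DMb2 and disagree on its size. H2-Oa, the DO alpha chain, read 312.6 and 268.1 by probe set 1419297_at, a 1.17-fold higher follicular signal. The probe set shared by H2-Ob, the DO beta chain, and Gm20506 read 48.4 and 44.3, a log2 ratio of -0.13.

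Ciita, the transactivator on which class II transcription depends, had the largest difference of the members and the lowest signals. Probe set 1421211_a_at read 32.0 in follicular and 9.50 in marginal zone cells. The marginal zone value lay below the floor, so the follicular signal was at least 2.53-fold higher. The second probe set, 1421210_at, read 30.0 and 13.4, 2.25-fold higher in follicular cells, with both values above the floor. The probe sets of Ciita had one direction, which the filter fixed for the first. Their log2 ratios were -1.34, a bound set by the floor, and -1.17. Its signals were weak, and the difference passed below 2-fold, to a log2 ratio of -0.71, when a pseudocount equal to the floor took the floor's place. Among the 2931 measured genes with a mean signal between 12.7 and 25.3, the range that holds Ciita, 4.37% passed 2-fold in the same direction. Means were taken after values were raised to the floor, so genes in the lower part of that range could not reach 2-fold. The share therefore does not show how rare a ratio like that of Ciita is at its signal.

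**Figure D2:**
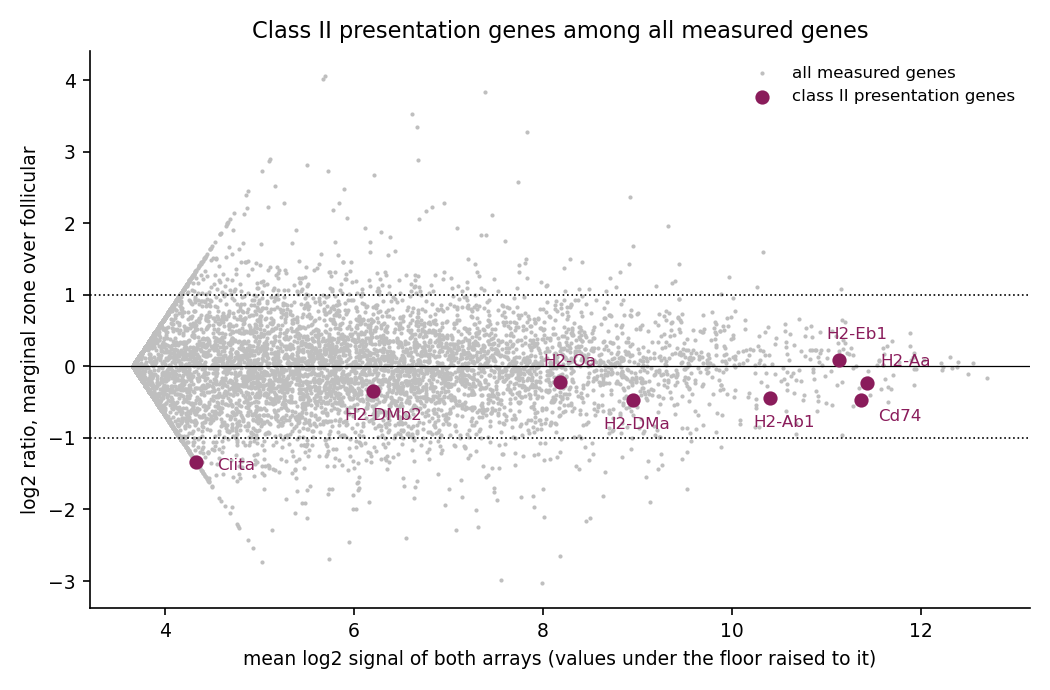
Log2 ratio (marginal zone to follicular signal) against the mean log2 signal for all 7695 measured genes (grey) and the 8 class II presentation genes (purple), with dotted lines at 2-fold. The members apart from Ciita and H2-Eb1 lie between -0.47 and -0.22, inside the cloud of other genes, and Ciita lies on the edge that the floor draws at low signal.

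Set beside other bright genes, the ratios of the chains were within the usual range. Of 458 measured genes with a mean signal of at least 500, 46.3% had the lower signal in marginal zone cells, and the 25th and 75th percentiles of their log2 ratios were -0.25 and 0.25. H2-Ab1 and Cd74 lay below the lower of these, while H2-Aa and H2-Eb1 lay between them. The 5th and 95th percentiles of the bright genes were -0.86 and 0.69, and none of H2-Aa, H2-Ab1, H2-Eb1 and Cd74 passed them.

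Factors that bind class II promoters with CIITA, listed together with coactivators, were on the array for 11 of 13 listed genes. Of these 11 measured genes, 7 had the lower signal in marginal zone cells, against 52.2% of all measured genes. Past 2-fold, 2 were toward follicular (4.86% of all measured genes) and 0 toward marginal zone cells (4.39%), and the median log2 ratio was -0.33. Rfx5, the DNA-binding subunit of RFX on the X box, read 213.6 in follicular and 98.1 in marginal zone cells, 2.18-fold higher in follicular cells. Its partner Rfxap read 54.1 and 38.5, and Rfxank read 19.5 and 20.3, with a second probe set at -0.82 on the log2 scale; both genes were chosen after their values were seen. Nfyb, a subunit of the Y box factor NF-Y, read 40.8 and 19.7, a 2.07-fold higher follicular signal. A second probe set of Nfyb had the opposite sign, at 0.50 on the log2 scale. The acetyltransferase gene Kat2b was 1.62-fold higher in follicular cells, and Carm1, an arginine methyltransferase, was 1.56-fold higher in marginal zone cells.

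Factors known to control Ciita differed in both directions. Of 8 measured genes, 6 had the lower signal in marginal zone cells, against 52.2% of all measured genes. Of the 6, 1 passed the floor through the follicular array alone. Irf4, also among the 6, read 532.4 and 527.1, a log2 ratio of -0.01, and its second probe set was at 0.44. It was chosen after its values were seen. Past 2-fold, 2 were toward follicular (4.86% of all measured genes) and 1 toward marginal zone cells (4.39%), and the median log2 ratio was -0.33. Irf1, an activator of Ciita in response to interferon, read 288.1 and 98.2, 2.93-fold higher in follicular cells. Irf8, which acts with PU.1 in B cells, read 712.5 and 295.2, a 2.41-fold difference, and its second probe set was at -0.77. Prdm1, the plasma cell repressor that silences Ciita, read 12.7 and 30.9, 2.43-fold higher in marginal zone cells, with the follicular signal close to the floor. Usf1, a factor of a Ciita promoter, read 13.0 and 24.4, 1.87-fold higher in the marginal zone sample, though close to the floor. The second probe set of Usf1 was at 0.37 on the log2 scale.

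Endosomal proteases and other processing genes differed in both directions. Of 10 measured genes, 6 were higher and 4 lower in marginal zone cells, a split near that of all measured genes, of which 52.2% were lower. Past 2-fold, 2 were toward marginal zone (4.39% of all measured genes) and 0 toward follicular cells (4.86%), with a median log2 ratio of 0.05. Ctsz, a carboxypeptidase of lysosomes, read 89.1 and 318.5, 3.57-fold higher in marginal zone cells, with log2 ratios between 1.63 and 1.84 for its 3 probe sets. Ctsb, cathepsin B, read 74.8 and 181.4, 2.43-fold higher in marginal zone cells, and its second probe set stayed under 2-fold at 0.64 on the log2 scale. Cst3, an inhibitor of cathepsins, was 1.95-fold and the aminopeptidase gene Ctsh 1.76-fold higher in follicular cells. Ctss, the cathepsin that makes the last cuts in the invariant chain of B cells, read 1742 and 1527, and Ifi30, the thiol reductase of endosomes, read 188.7 and 271.5; both were chosen after their values were seen.

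At the cell surface, Cd74 is also a receptor for the cytokine MIF, and CD44 and CXCR4 are its partners. Mif read 192.7 and 360.9, 1.87-fold higher in marginal zone cells. Cd44 read 286.5 and 712.2, 2.49-fold higher in marginal zone cells, with a second probe set at 1.65 on the log2 scale. Cxcr4 read 289.6 and 247.7, 1.17-fold higher in follicular cells, and Cxcr2 was below the floor on both arrays. Cd74 itself, with its lower marginal zone signal, thus had the opposite direction to Mif and Cd44. Cd83, whose product keeps class II at the surface by opposing its ubiquitination, read 2261 and 1178, 1.92-fold higher in follicular cells.

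Class I presentation genes, which load peptides from the cytosol, were divided. Of 15 measured, 7 were higher and 8 lower in marginal zone cells, near the split of all measured genes, of which 52.2% were lower. Past 2-fold were 0 toward follicular (4.86% of all measured genes) and 0 toward marginal zone cells (4.39%), and the median log2 ratio was -0.04. The heavy chain gene H2-K1 read 1469 and 2125, 1.45-fold higher in marginal zone cells, with log2 ratios between 0.44 and 0.84 for its 4 probe sets. These probe sets may also bind transcripts of related class I genes. Psmb10, a subunit of the immunoproteasome, was 1.34-fold higher in marginal zone cells. The peptide transporter gene Tap2 was 1.44-fold and the loading factor gene Tapbp 1.34-fold higher in follicular cells. The second probe set of Tapbp was at -0.0085 on the log2 scale.

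**Figure D3:**
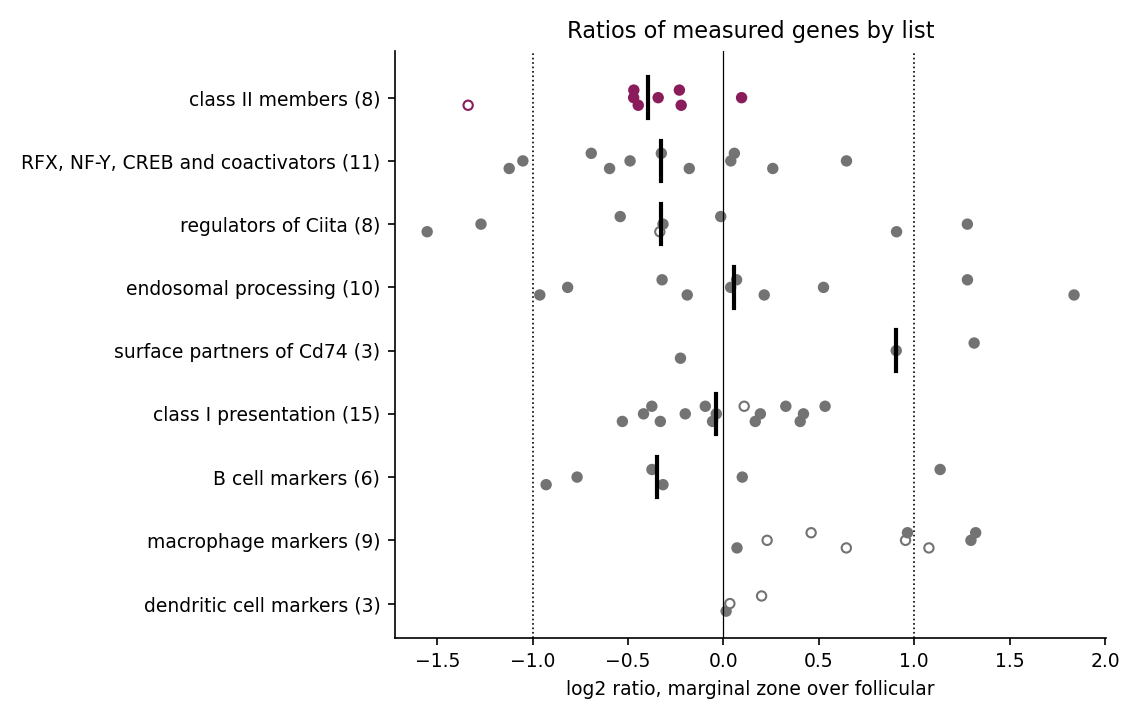
Log2 ratio (marginal zone to follicular signal) of each measured gene, by list, with the number of measured genes in brackets, open circles for genes below the floor on 1 array, a black bar at the median (not drawn for macrophage and dendritic cell markers) and dotted lines at 2-fold. The class II genes have a median of -0.39, the endosomal processing genes spread to both sides around 0.05, and 5 of the 9 macrophage markers are open circles, whose side the floor decides.

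Class II genes lie together on chromosome 17 with other genes, among them genes of class I presentation. In RefSeq gene order from Brd2 to Btnl2 there are 14 protein-coding genes, of which 10 were measured, 5 of them no members. Of these 5, Brd2 (-0.32), Psmb9 (-0.10), Tap1 (-0.38) and Tap2 (-0.53) had the lower signal in marginal zone cells by the log2 ratios given, and Psmb8 (0.40) the higher. Over all measured genes, 52.2% had the lower signal there. The median log2 ratio of these 5 genes was -0.32, and 0 of them passed 2-fold, against 9.25% of all measured genes. Psmb9, Tap1, Psmb8 and Tap2 are also counted in the class I list.

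Macrophages and dendritic cells also express class II genes, so their markers are given beside these results. Of 14 macrophage markers on the array, 9 were measured. Of these, 5 (Cd5l, C1qb, Cd68, Vcam1 and Cd14) passed the floor through the marginal zone array alone, so the filter fixed their direction and the list is given no median. The 4 above the floor on both arrays were Csf1r (17.3 and 42.5), Lyz2 (12.9 and 25.2), Adgre1 (23.8 and 24.9) and Mpeg1 (33.9 and 84.6), with follicular before marginal zone signals. The 3 probe sets of Csf1r had log2 ratios from 0.17 to 1.70, and the follicular signal of Lyz2 was close to the floor. The signals of all 14 summed to 128.5 in follicular and 291.6 in marginal zone cells. C1qa, C1qc, Marco, Siglec1 and Fcgr1 were below the floor on both arrays. Of 8 dendritic cell markers, 3 were measured, and the sums were 71.5 and 77.3. Flt3 read 19.7 and 19.9, while Itgax (12.1 and 14.6) and Zbtb46 (0.909 and 13.0) passed the floor through the marginal zone array alone. Plasma cells lose class II expression. Of their 5 measured markers, 3 were higher and 2 lower in marginal zone cells, while 52.2% of all measured genes were lower. The median log2 ratio was 0.47. Xbp1, counted as higher, had log2 ratios from -0.98 to 0.73 over its 4 probe sets. Irf4, counted as lower, had a log2 ratio of -0.01 and a second probe set at 0.44. The probe set that stood for Sdc1 passed the floor through the follicular array alone, so the filter fixed its direction. Sdc1 had a follicular excess of at least 5.39-fold by 1 of its 3 probe sets, and the log2 ratio nearest to 0 among them was -0.32. The part of any other cell type in the class II signals was not tested. Fewer expressing cells and less RNA per cell cannot be told apart in sorted pools.

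**Figure D4:**
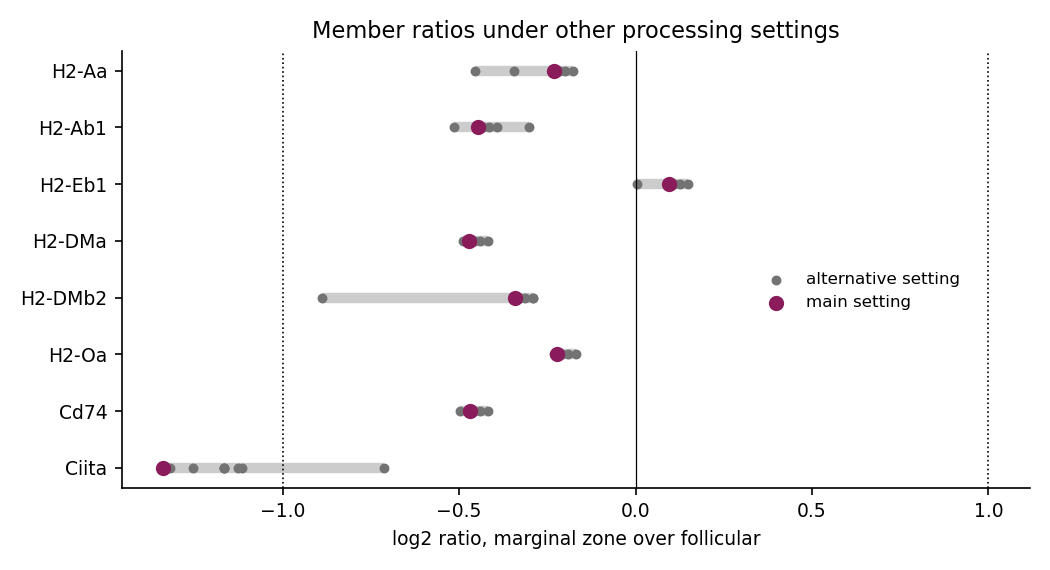
Log2 ratio (marginal zone to follicular signal) for each class II presentation gene under the main setting (large purple point) and under each alternative setting (small grey points, with the bar as their range), with dotted lines at 2-fold. Signs stayed the same for all 8 genes, H2-Eb1 came within 0.0045 of 0, and Ciita ran from -1.34 to -0.71.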

How the data were processed

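Per the submitters' processing notes, the authors' deposited values are MAS5 signals, linear intensities with 1 value for each probe set on each array. For version, scaling target and detection calls the sources used here give nothing. From these intensities, 1.01 and 0.990 were applied as scaling factors to the follicular and marginal zone arrays, with the floor, filter and choice of probe set described in the results. Names came from the platform annotation (20380 probe sets with 1 gene, 691 with several, 1555 not listed). The Entrez identifiers of all 12 member probe sets were found in RefSeq (GRCm38.p6). Promoters came from the RefSeq table, which spans 250 bases before to 50 after each start.

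Python 3.11.15, pandas 2.3.3, numpy 2.4.6 and matplotlib 3.10.9 were used, and the ratio procedure was tested on simulated data. With 2 arrays, precision is limited by their number. The members and lists were chosen with earlier results of these data known. All members were named, and of each list up to 4 measured genes with the largest absolute log2 ratio, or all of a list with 5 or fewer, and of marker lists the defining markers and those above the floor; other names are marked. The alternatives were 4 other scalings, other floors (25th and 75th percentile, none, or a pseudocount), 2 other probe set rules, no filter and thresholds of 1.5-fold and 3-fold. Including shared probe sets was added after seeing the data.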

Additional observations from a re-analysis of the deposited data

How the results depend on the processing

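No paired analysis was possible because each population has 1 array, and no array could be left out for the same reason. The members' median log2 ratio ran from -0.45 to -0.34 over 12 alternatives, and the number of members lower in marginal zone cells from 6 to 8. It was 6 of 7 with the floor at the 75th percentile, and 8 of 9 with shared probe sets, when H2-Ob entered. Ciita was the only member past 2-fold, and this count became 0 with the floor at the 75th percentile, where Ciita was no longer measured and 7 members remained, 0 with a pseudocount replacing the floor, and 0 at a threshold of 3-fold. The count past the threshold in marginal zone cells was 0 under all 14 alternatives. H2-DMb2 moved to -0.89 when the probe sets shared with H2-DMb1 were admitted. With the floor at the 75th percentile, only 3 regulators of Ciita were measured and their median was -1.27. Without the filter, the median of the surface partners of Cd74 was 0.45, since Cxcr2 entered the list. The median of the class I list ranged from -0.04 to 0.01 and has no settled sign. Over all genes the share past the threshold was 9.25% and became 24.2% with the floor at the 25th percentile, 21.5% with no floor, 5.75% without the filter, 29.5% at 1.5-fold and 1.73% at 3-fold. Signals near the floor, those of Ciita among them, limit what a ratio can show.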
